A study of Mus musculus with 6 samples.

Results

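The genes described here are the ligands, receptors, extracellular antagonists, SMAD proteins, target genes and latency proteins of the BMP, activin and TGF-beta pathway. They were taken as a list of 56 gene symbols. A member was a feature of the deposited value table with one of these symbols as its only annotated gene, and 54 of the 56 had such a feature, 1 feature each, among 19946 genes measured. Gdf15 had none, and the feature of Gdf1 is shared with Cers1, so both were not analysed here.

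RNA of whole lungs from mouse embryos at E14.5 was hybridised to 6 single-colour Affymetrix arrays, 3 from control and 3 from mutant embryos. Controls carried Shh-Cre. Mutants carried Shh-cre with floxed (loxP-flanked) alleles that the labels write as Foxp1flox/flox:Foxp1flox/flox:Foxp4flox/flox, while the series title gives the targeted genes as Foxp1/2/4, so the second entry was read as Foxp2. Both groups thus share the Cre driver, which is expressed from Shh, a gene of the lung endoderm and not of the lung mesenchyme, and both are on a mix of C57BL/6 and 129X1. The study asks what the forkhead transcription factors Foxp1, Foxp2 and Foxp4 do for the identity of the lung endoderm. Whole lung was measured, so epithelium, mesenchyme, vessels and blood all contribute, and fewer cells of a type cannot be told apart from less RNA per cell.

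The pathway is built on dimeric ligands that gather type I and type II receptor kinases. BMPs and many GDFs lead to phosphorylation of SMAD1, SMAD5 and SMAD9, while TGF-betas and activins act on SMAD2 and SMAD3, and both branches use SMAD4. Secreted antagonists such as noggin, chordin, gremlin and follistatin bind ligands before they reach a receptor, and latent TGF-beta is held in the matrix by LTBP proteins until integrins or proteases release it. In the branching lung Bmp4 is known from the epithelium of the distal tips, Bmp5 and the TGF-betas from mesenchyme as well, and the balance of ligand and antagonist helps to set proximal and distal fate.

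Values are the authors' log2 values, and differences are mutant minus control on the log2 scale with the standard error (SE) of the limma fit. Single values are listed in the order of arrays 1 to 3. "Passed" means a limma adjusted p of at most 0.05, adjusted with Benjamini-Hochberg over all 19946 genes.

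Some facts of the arrays bear on these values. Foxp2 fell by 0.95 and Foxp4 by 0.64, while Foxp1 was at -0.31 and did not pass (adjusted p = 0.0661). Lung markers were present in controls, where Nkx2-1 lay between 10.09 and 10.16 and Sftpc between 11.35 and 11.41. In mutants Nkx2-1 lay between 8.98 and 9.44, and Sftpc between 5.75 and 5.86. Sftpc fell most of the lung epithelial markers (-5.58), followed by Cldn18 (-4.77) and Sox2 (-2.08). Epcam, Cdh1 and Id2 differed least, at -0.33, -0.19 and -0.01, and the median over the 12 markers was -0.86. Mutant 1 stood apart in heart muscle genes. The log2 summed level of the 18 heart markers was 12.09 to 12.14 in controls, 13.41 in mutant 1, and 11.27 and 11.19 in mutants 2 and 3. Of the smooth muscle markers 8 of 11 fell (summed level 13.62 to 13.65 in controls, 12.48 to 12.67 in mutants), as did 9 of 12 lung epithelial markers (14.03 to 14.08 and 13.19 to 13.30). Of the 10 mesenchymal markers 2 rose and 1 fell (14.14 to 14.15 and 14.02 to 14.23), of 8 endothelial markers 0 passed (13.51 to 13.52 and 13.35 to 13.55), and of 10 cartilage markers 4 fell (10.89 to 10.92 and 10.17 to 10.37). Of 4 measured red cell markers 3 fell, with a median difference of -0.74 (12.46 to 12.96 in controls, 12.46 in mutants 1 and 2, and lower in mutant 3). Of 6 mesothelial and 8 stratified epithelial markers 1 and 2 rose, and of 9 skeletal muscle markers 0 passed. Log2 array values have no true zero, so no marker can be said to be at 0. The part of these shifts in cell makeup in the results on the pathway was not tested. Control 3 and mutant 3 read as male by Xist and Y-linked genes, and the other 4 arrays as female.

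In all, 13 of the 54 members passed (24.1%), 3 higher and 10 lower in the mutants, where 7.66% of all genes tested passed, 3.84% higher and 3.83% lower. Members were brighter than most genes, since 43 of them had a mean above that of the median gene. Of those 43, 8 passed (18.6%), against 9.94% of all genes above the median gene. The mutants lay wholly above or wholly below the controls in 24 members (44.4%), 12 in each direction, against 25.9% of all genes. Among the 43 brighter members this held for 18, against 31.4% of all genes above the median gene. A change of at least 1.5-fold was seen in 4 of the members that passed, where 2.75% of all genes passed with such a change. The median difference was -0.05 over the members and -0.01 over all genes, and the median size of the difference was 0.17 and 0.08. Without mutant 1, 16 members passed, 5 higher and 11 lower, against 7.44% of all genes, and 12 of the 13 were among them. The member list was chosen with earlier results of these data known, so these shares are a description and were not tested.

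The number that passed differed between the roles, beside 7.66% of all genes. Of 9 antagonists 6 passed (66.7%), of 16 ligands 5 (31.2%), and of 5 latency and processing genes 2 (40%). Of 12 receptors, 8 SMAD genes and 4 target genes 0 passed. At a share of 7.66%, few or no calls would be found among so few genes. At an unadjusted p under 0.05 there were 4 receptors, 1 SMAD gene and 2 target genes. Whether these shares differ between roles was not tested.

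**Figure D1:**
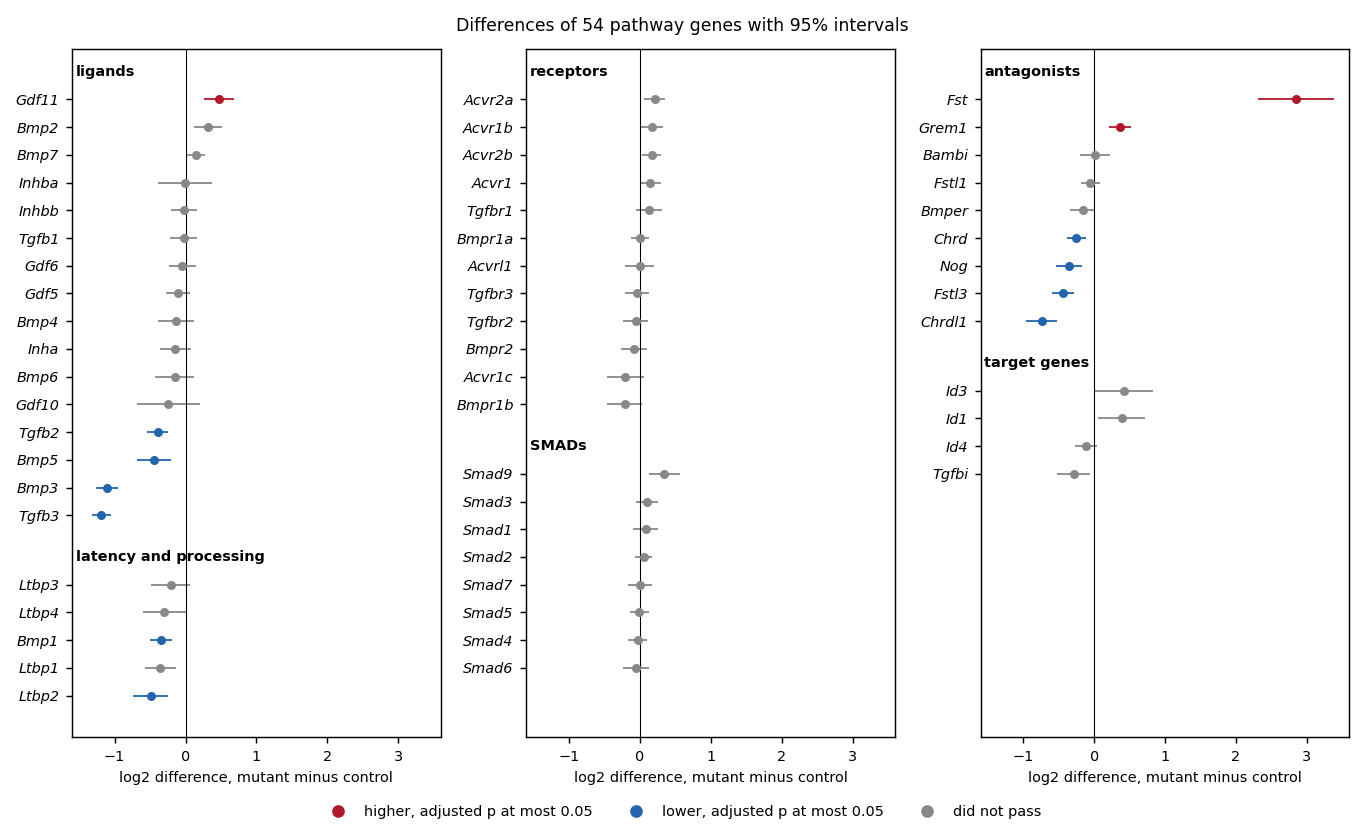
Log2 difference between mutant and control lungs (x axis, mutant minus control) for 54 pathway genes grouped by role, with 95% intervals of the limma fit; red and blue points passed an adjusted p of 0.05 and grey points did not. Fst stands at 2.84, while Tgfb3 at -1.19 and Bmp3 at -1.10 are the lowest, and the receptors lie between -0.22 and 0.21.

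Among the TGF-beta ligands, Tgfb3 and Tgfb2 were lower in the mutants and Tgfb1 did not pass. Tgfb3, a TGF-beta known for roles in lung and palate, gave 10.07, 10.10 and 10.03 in control lungs and 8.95, 8.82 and 8.87 in mutant lungs. The groups lay more than 1 log2 unit apart with no overlap, and the difference was -1.19 ± 0.06 (SE, 3 arrays in each group), a 2.28-fold fall that had a limma adjusted p of 3.14e-05. Tgfb2 gave 10.62, 10.49 and 10.61 in control lungs and 10.11, 10.21 and 10.24 in mutant lungs. All mutant values were lower, at -0.39 ± 0.06 or 1.31-fold (adjusted p = 0.00875), though without control 3 the adjusted p was 0.0523. Tgfb1 gave 8.99, 8.93 and 9.02 in control lungs and 8.84, 8.89 and 9.13 in mutant lungs, so the groups overlapped (-0.03, 95% interval -0.22 to 0.17, adjusted p = 0.916). Mutant 3 was the highest and mutant 1 the lowest of all 6 arrays for Tgfb1.

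**Figure D2:**
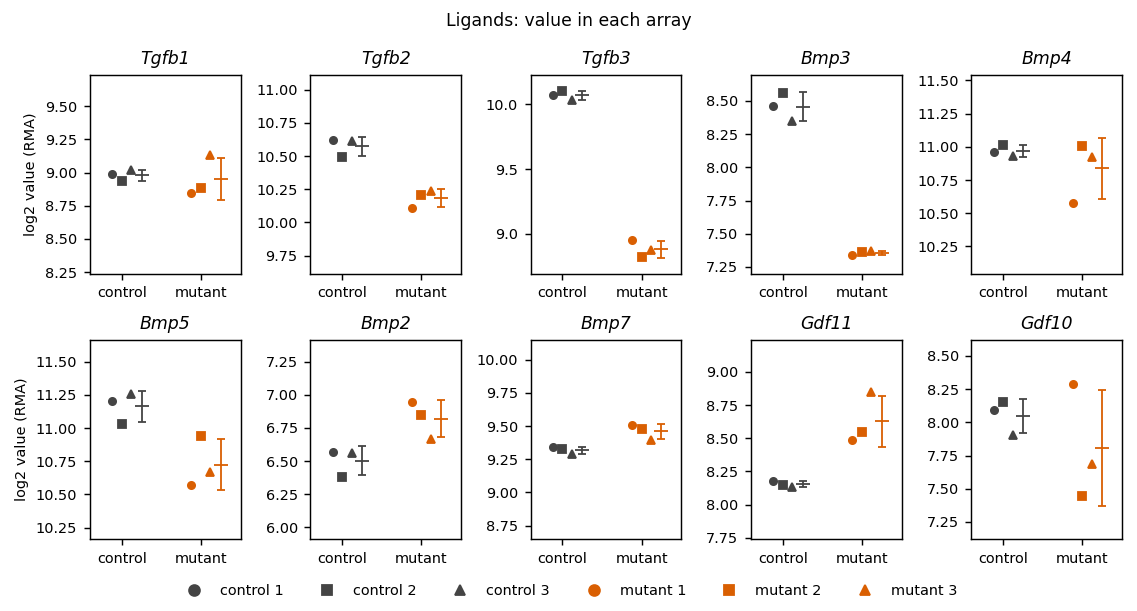
Log2 value (y axis, RMA) in each control and mutant array for 10 ligands, with the group mean and standard deviation (n = 3 arrays) beside the points. The groups are far apart for Tgfb3 and Bmp3, lie close but apart for Bmp7, and overlap for Tgfb1, Bmp4 and Gdf10.

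Among the BMP ligands, Bmp3 and Bmp5 were lower, and none passed in the other direction. Bmp3, an atypical BMP that acts against other BMPs, gave 8.46, 8.56 and 8.35 in control lungs and 7.34, 7.36 and 7.37 in mutant lungs. The mutants were nearly equal to each other (SD 0.02) and all lay well below the controls (SD 0.11), a difference of -1.10 ± 0.07 or 2.15-fold (limma adjusted p = 7.93e-05). Bmp5, a BMP of the lung mesenchyme, gave 11.20, 11.03 and 11.26 in control lungs and 10.57, 10.94 and 10.67 in mutant lungs. Control 2 and mutant 2 were only a short step apart, and the difference was -0.44 ± 0.10 (adjusted p = 0.0427). The difference stayed between -0.55 and -0.36 over all alternatives tried, but the call was often lost. Each fit with an array left out has fewer samples. The adjusted p was 0.15, 0.0663 and 0.171 without control 1, 2 and 3, and 0.0894 and 0.12 without mutant 1 and 3. With embryo sex as a covariate it was 0.0758, and with the replicate number as a block 0.0888.

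Bmp4, the ligand of the distal tips, gave 10.96, 11.01 and 10.93 in control lungs and 10.58, 11.01 and 10.93 in mutant lungs. Mutant 2 lay within the range of the controls, mutant 3 at its lower edge and mutant 1 well below it. The difference was -0.13 (95% interval -0.38 to 0.12, adjusted p = 0.592), and -0.00 without mutant 1. Bmp2, a ligand close to Bmp4, gave 6.57, 6.38 and 6.56 in control lungs and 6.95, 6.85 and 6.67 in mutant lungs. All mutant values were higher, at 0.32 ± 0.09, without passing (adjusted p = 0.0752). Leaving out mutant 3, the lowest mutant, gave 0.0423, the only 1 of 16 alternatives in which Bmp2 passed. Without control 2 its limma adjusted p was 0.248. Bmp7, which can pair with Bmp2 or Bmp4, was likewise higher in all mutants by 0.14 ± 0.06 and did not pass (adjusted p = 0.199). Bmp6 was at -0.15 with overlapping groups.

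Of the growth differentiation factors, Gdf11 was higher. Gdf11, a ligand of activin receptors known from axial patterning, gave 8.18, 8.15 and 8.13 in control lungs and 8.49, 8.55 and 8.85 in mutant lungs. Mutant 3 was the highest, and the groups did not overlap (0.47 ± 0.09, 1.39-fold, adjusted p = 0.02). Leaving out 1 control ended the call, with adjusted p of 0.072, 0.0818 and 0.0888 without control 1, 2 and 3. The difference itself changed little in these smaller fits, at 0.49, 0.47 and 0.47. Gdf10, also called Bmp3b, gave 8.09, 8.15 and 7.90 in control lungs and 8.29, 7.45 and 7.69 in mutant lungs. Mutant 1 was the highest of all arrays and mutants 2 and 3 were the lowest, so the 95% interval was wide (-0.68 to 0.20, adjusted p = 0.582). Without mutant 1, the array with high heart muscle genes, Gdf10 was at -0.48 ± 0.10 (adjusted p = 0.0319). Gdf5 and Gdf6, joint-forming ligands, were dim and overlapped, at -0.11 and -0.05.

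The activin and inhibin subunits did not pass. Inhba, the beta A subunit of activin, gave 7.50, 7.54 and 7.50 in control lungs and 7.90, 7.15 and 7.47 in mutant lungs. The controls were nearly equal and the mutants spread to both sides of them (SD 0.02 and 0.38), so the mean difference was -0.01 with a 95% interval of -0.38 to 0.37. Inhbb, the beta B subunit, was at -0.02, and Inha, the inhibin alpha subunit, at -0.14, both with overlapping groups.

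The antagonists held the member that changed most, follistatin. Fst, whose product binds activins and some BMPs and blocks their access to receptors, gave 7.00, 6.81 and 7.03 in control lungs and 10.14, 10.07 and 9.17 in mutant lungs. Every mutant lay more than 2 log2 units above every control, with mutant 3 lower than the other mutants by about 1 unit. The difference was 2.84 ± 0.23 or 7.17-fold (95% interval 2.30 to 3.38, limma adjusted p = 0.000313), and it stayed between 2.65 and 3.15 over all alternatives tried. Fstl3, a follistatin-like binder of activin and myostatin, went the other way. It gave 8.45, 8.42 and 8.47 in control lungs and 8.05, 7.89 and 8.09 in mutant lungs. The controls were nearly equal and all mutants lower, at -0.44 ± 0.07 or 1.35-fold (adjusted p = 0.00668). Fstl1, a related secreted glycoprotein of mesenchyme, was at -0.06 with overlapping groups (95% interval -0.19 to 0.08).

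**Figure D3:**
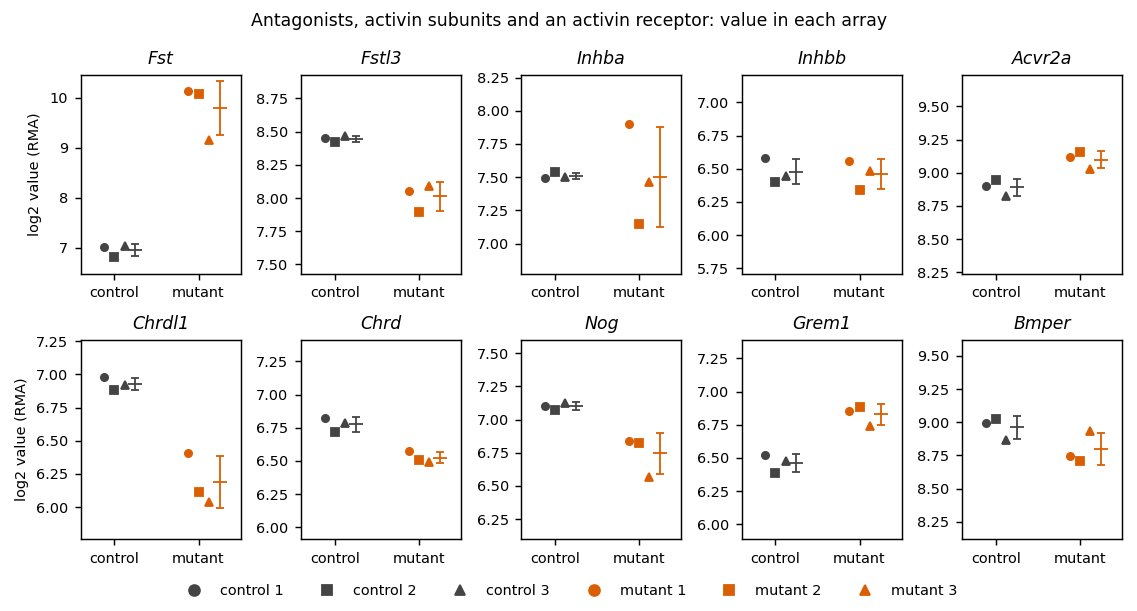
Log2 value (y axis, RMA) in each control and mutant array for 7 antagonists, the activin subunits Inhba and Inhbb and the activin receptor Acvr2a, with the group mean and standard deviation (n = 3 arrays). Fst goes from a control mean of 6.95 to a mutant mean of 9.79, while Fstl3, Chrdl1, Chrd and Nog are lower in all mutants and Grem1 is higher.

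The antagonists with a preference for BMPs moved in both directions. Chrdl1, which encodes chordin-like 1, gave 6.98, 6.88 and 6.92 in control lungs and 6.41, 6.11 and 6.04 in mutant lungs. Mutant 1 was the least reduced, all mutants were lower, and the difference was -0.74 ± 0.10 or 1.67-fold (adjusted p = 0.00304). Nog, which encodes noggin, gave 7.10, 7.07 and 7.13 in control lungs and 6.84, 6.82 and 6.57 in mutant lungs, lower throughout (-0.36 ± 0.08, adjusted p = 0.035). Chrd, which encodes chordin, gave 6.83, 6.72 and 6.79 in control lungs and 6.57, 6.51 and 6.49 in mutant lungs, also lower throughout (-0.25 ± 0.06, adjusted p = 0.0377). Grem1, which encodes gremlin and is known from mesenchyme, gave 6.52, 6.39 and 6.48 in control lungs and 6.86, 6.89 and 6.74 in mutant lungs, higher throughout (0.37 ± 0.07, adjusted p = 0.0131).

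The last 3 calls are near the threshold. Over all alternatives the differences stayed between -0.41 and -0.27 (Nog), -0.28 and -0.23 (Chrd), and 0.33 and 0.41 (Grem1). Without control 1, 2 and 3 the adjusted p of Nog was 0.121, 0.108 and 0.139, and with the replicate block 0.067. For Chrd it was 0.147, 0.0823 and 0.146 without control 1, 2 and 3, 0.0555 and 0.1 without mutant 2 and 3, 0.0642 with trend and robust moderation, 0.0718 with sex as a covariate and 0.0859 with the replicate block. For Grem1 it was 0.0673 and 0.058 without control 2 and 3. Chrdl1, Nog, Chrd and Grem1 are also dim here, each with a mean below that of the median gene, where the array values compress differences. Bmper, a BMP-binding matrix protein, was at -0.17, and Bambi, a pseudoreceptor without kinase, at 0.01, and neither passed (95% intervals -0.34 to 0.01 and -0.20 to 0.22).

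Sequences upstream of the gene start were matched for 37 of the 54 members, and for 7 of the 13 that passed. These do not include Fst, Tgfb3, Bmp3 and Chrdl1, the 4 that changed at least 1.5-fold. Windows are shown for 3 members that passed: Tgfb2, a ligand that fell, Chrd, an antagonist that fell, and Grem1, an antagonist that rose. Each is the stretch of 250 bases before the gene start, printed 5′ to 3′ on the strand of the gene, from RefSeq on GRCm38.p6. The window of Tgfb2 lies at chr1:186705990-186706239 on the minus strand, that of Chrd at chr16:20732877-20733126 on the plus strand and that of Grem1 at chr2:113758649-113758898 on the minus strand. Capitals mark matches on either strand to the forkhead cores TGTTTAC or TGTTTGC, the SMAD box CAGAC and the BMP-SMAD box GGCGCC.
Tgfb2: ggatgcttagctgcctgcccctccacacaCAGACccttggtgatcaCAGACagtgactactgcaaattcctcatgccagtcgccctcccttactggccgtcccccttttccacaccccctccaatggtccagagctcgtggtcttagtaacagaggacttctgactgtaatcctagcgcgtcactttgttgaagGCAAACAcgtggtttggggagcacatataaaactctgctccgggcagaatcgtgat
Chrd: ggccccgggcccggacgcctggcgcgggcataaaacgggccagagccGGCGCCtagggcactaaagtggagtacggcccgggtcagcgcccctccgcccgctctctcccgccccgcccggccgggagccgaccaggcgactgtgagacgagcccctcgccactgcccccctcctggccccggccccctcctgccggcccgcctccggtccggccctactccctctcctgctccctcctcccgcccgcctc
Grem1: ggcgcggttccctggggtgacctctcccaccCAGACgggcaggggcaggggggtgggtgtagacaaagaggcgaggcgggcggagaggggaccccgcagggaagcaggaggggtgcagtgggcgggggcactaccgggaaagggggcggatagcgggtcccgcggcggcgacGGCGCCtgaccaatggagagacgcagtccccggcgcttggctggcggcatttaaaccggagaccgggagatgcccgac

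In these windows Tgfb2 held 1 match to TGTTTGC, on the opposite strand and starting at position -56 from the gene start, and 2 to CAGAC. Chrd held 1 match to GGCGCC, and Grem1 held 1 to GGCGCC and 1 to CAGAC. Of the 7 members that passed and had a window, only Tgfb2 held a forkhead core, and Gdf11 held no match to any motif. Over the 37 members, 2 windows held TGTTTGC (5.41%), 0 held TGTTTAC, 18 held CAGAC (48.6%) and 10 held GGCGCC (27%). Over 32851 windows of the same length the shares were 4.3%, 3.17%, 42.2% and 9.59%. Chromosome 18 was left out of both searches. Members were counted once if any window of theirs held a match, while the 32851 windows were counted singly, so these shares are not like for like. No motif contains another, and CAGAC is short enough to occur often. A match is a run of letters and no measurement of binding, and binding was not measured here.

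None of the 12 receptor genes passed, and 11 of them have a mean above that of the median gene. Bmpr1a, the main BMP type I receptor of lung epithelium, gave 11.00, 11.02 and 11.05 in control lungs and 11.04, 11.04 and 10.99 in mutant lungs. Its groups overlapped, and the 95% interval of the difference was -0.12 to 0.12. Bmpr2, the BMP type II receptor, was at -0.09 (-0.27 to 0.10), and the TGF-beta receptors Tgfbr2 and Tgfbr1 at -0.06 (-0.24 to 0.12) and 0.13 (-0.05 to 0.31). Acvrl1, a type I receptor of endothelium, and Tgfbr3, the coreceptor betaglycan, were at -0.00 and -0.04.

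The groups did not overlap, without passing, for 4 of the 12 receptors (33.3%). Among genes above the median gene, 31.4% did not overlap, counted in either direction. The share of receptors is thus near that of other bright genes. In these 4 receptors the mutants lay above the controls, a number too small to read a direction from, and the direction was not tested. Over all 19946 genes, bright and dim together, 25.9% did not overlap, with 2663 wholly above and 2504 wholly below. Acvr2a, an activin type II receptor, gave 8.90, 8.95 and 8.82 in control lungs and 9.12, 9.16 and 9.03 in mutant lungs. These groups did not overlap, and the difference was 0.21 ± 0.06 (limma adjusted p = 0.0947). Acvr2b, the second of these type II receptors, was at 0.17, Acvr1b, the activin type I receptor, at 0.17, and Acvr1, a type I receptor for BMPs and activins, at 0.15. In each of these 3 all mutants lay above all controls, with adjusted p of 0.158, 0.183 and 0.243. Acvr1c, a type I receptor for activins and Nodal, and Bmpr1b, a BMP type I receptor, were at -0.21 and -0.22 with overlapping groups. Over the 12 receptors the 95% intervals reached from -0.46 (Acvr1c) to 0.35 (Acvr2a).

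The SMAD genes, which encode the intracellular carriers of the signal, differed little. Of the receptor-activated and common SMADs, Smad2 was at 0.05, Smad3 at 0.10, Smad1 at 0.08, Smad4 at -0.03 and Smad5 at -0.01. The inhibitory SMADs, which are also induced by the pathway, were at -0.06 for Smad6 and 0.00 for Smad7. Over these 7 genes the 95% intervals reached from -0.24 to 0.26. Smad9, the third BMP-activated SMAD, gave 8.03, 8.09 and 7.92 in control lungs and 8.19, 8.35 and 8.54 in mutant lungs. All mutants were higher, with mutant 1 nearest to the controls, and the difference of 0.35 ± 0.09 had an adjusted p of 0.0688, above the threshold. Without mutant 1 it was 0.43 (adjusted p = 0.0243), and with the heart muscle median as a covariate 0.40 (adjusted p = 0.0224). That median was 1.13 in mutant 1 and -0.31 to -0.09 in the other arrays, so these fits are not independent of each other. Smad9 passed in 3 of 16 alternatives, and its limma adjusted p rose to 0.244 without control 3. RNA levels say nothing of SMAD phosphorylation, which was not measured.

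Of the target genes, Id1 and Id3, which encode inhibitors of helix-loop-helix factors and are induced by BMPs, varied among the mutants. Id1 gave 9.02, 9.01 and 8.98 in control lungs and 9.12, 9.76 and 9.29 in mutant lungs. Id3 gave 9.21, 9.20 and 9.10 in control lungs and 9.16, 10.00 and 9.60 in mutant lungs. The order of the mutants was the same in both genes, with mutant 2 highest and mutant 1 at or near the controls. The differences were 0.39 ± 0.15 and 0.41 ± 0.18, and neither reached the threshold (adjusted p 0.181 and 0.254). With mutant 1 left out they were 0.52 (adjusted p = 0.0531) and 0.63 (adjusted p = 0.019). Id4 was at -0.11 with overlapping groups. Tgfbi, a matrix protein named for its induction by TGF-beta, gave 11.38, 11.39 and 11.41 in control lungs and 10.88, 11.14 and 11.30 in mutant lungs. Its mutants were all lower and the difference of -0.29 ± 0.10 did not pass (adjusted p = 0.143).

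All 5 genes of latency and processing had negative differences, and 2 passed. Ltbp2, a matrix protein of the LTBP family that does not bind latent TGF-beta, gave 7.14, 7.19 and 7.15 in control lungs and 6.43, 6.69 and 6.88 in mutant lungs. Mutant 1 was lowest and the groups did not overlap (-0.49 ± 0.11, 1.41-fold, adjusted p = 0.0281). Its adjusted p was 0.0943, 0.11 and 0.103 without control 1, 2 and 3. The difference of Ltbp2 stayed between -0.60 and -0.38 over all alternatives tried. Bmp1, a protease that cleaves procollagens and chordin and is no ligand, gave 10.95, 11.06 and 11.06 in control lungs and 10.64, 10.63 and 10.76 in mutant lungs. It was lower throughout (-0.35 ± 0.06, 1.27-fold, adjusted p = 0.016), with adjusted p of 0.0809 and 0.0814 without control 2 and 3. Over all alternatives tried the difference of Bmp1 stayed between -0.39 and -0.32.

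Ltbp1, which tethers latent TGF-beta to the matrix, gave 9.35, 9.46 and 9.39 in control lungs and 9.26, 8.90 and 8.97 in mutant lungs. The highest mutant, mutant 1, came close to the lowest control, and the difference of -0.36 ± 0.10 had an adjusted p of 0.069, above the threshold. Without mutant 1 it was -0.47 (adjusted p = 0.00597), and with the heart muscle median as a covariate -0.43 (adjusted p = 0.00763). As for Smad9, these fits are not independent, since mutant 1 stands apart in that median. Ltbp1 also passed with arrays centred on their medians (-0.38, adjusted p = 0.0382) and with array weights (-0.36, adjusted p = 0.0282). Ltbp1 thus passed in 4 of 16 alternatives, and its limma adjusted p rose to 0.22 without control 2. Ltbp3 and Ltbp4 were at -0.21 and -0.30 with overlapping groups. In both, mutant 2 was lowest and mutant 3 lay at the level of the controls.

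**Figure D4:**
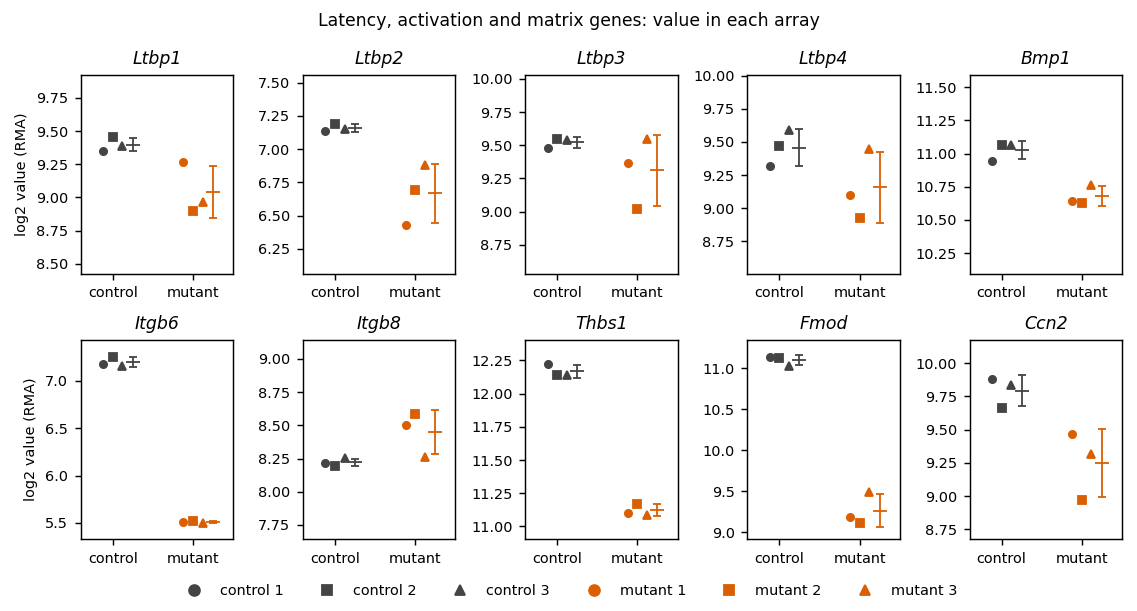
Log2 value (y axis, RMA) in each control and mutant array for the 4 LTBP genes and Bmp1 and for 5 further pathway genes of activation and matrix, with the group mean and standard deviation (n = 3 arrays). Thbs1, Itgb6 and Fmod differ by -1.05, -1.68 and -1.84 with no overlap, while Ltbp1 and Ltbp2 are separated by less and Ltbp3 and Ltbp4 overlap.

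A second list held 73 measured genes of the same pathway that are not among the 54. Of these 14 passed (19.2%, against 7.66% of all genes), 5 higher and 9 lower, with a median difference of -0.03. The list was chosen with earlier results of these data known, so its share is a description and no independent support. The 15 further ligands, among them Nodal, Bmp10 and Mstn, gave 0 calls (2 had an unadjusted limma p under 0.05), and 0 of them had a mean above that of the median gene.

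Of 15 further genes of latency, processing and matrix 1 rose and 4 fell. Fmod, which encodes fibromodulin, a collagen-bound proteoglycan that binds TGF-beta, gave 11.14, 11.12 and 11.03 in control lungs and 9.18, 9.12 and 9.49 in mutant lungs, far apart (-1.84 ± 0.10, 3.57-fold, adjusted p = 4.75e-05). Itgb6 encodes the epithelial integrin subunit that, with the alpha V subunit, releases TGF-beta from its latent complex. It gave 7.18, 7.25 and 7.15 in control lungs and 5.51, 5.52 and 5.50 in mutant lungs. The groups were far apart (-1.68 ± 0.05, 3.21-fold, adjusted p = 4.2e-06), and its mean is below that of the median gene, where array values compress differences. Thbs1, which encodes the latent TGF-beta activator thrombospondin 1, gave 12.22, 12.14 and 12.14 in control lungs and 11.10, 11.17 and 11.09 in mutant lungs, lower by a like step in each (-1.05 ± 0.06, 2.07-fold, adjusted p = 4.75e-05). Itgb8, the partner in the other TGF-beta-activating integrin, was at 0.23 and did not pass (adjusted p = 0.177).

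Of 8 coreceptor and surface genes 1 rose and 2 fell. Eng, the endothelial TGF-beta coreceptor endoglin, gave 10.42, 10.36 and 10.41 in control lungs and 10.71, 10.74 and 10.85 in mutant lungs (0.37 ± 0.06, adjusted p = 0.00887, and 0.0532 without control 2). The 8 endothelial markers, which do not include Eng, had a median difference of -0.08. Rgma, a BMP coreceptor, was at -0.53 ± 0.08 (adjusted p = 0.0075), and the heparan sulfate proteoglycan Sdc4 at -0.57 ± 0.07 (adjusted p = 0.00163). Both were lower in all mutants.

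Of 15 further antagonists and follistatin-like genes 1 rose and 2 fell. Cer1, a secreted antagonist of Nodal and BMPs, gave 6.80, 6.53 and 6.99 in control lungs and 5.66, 5.53 and 5.60 in mutant lungs (-1.18 ± 0.11, adjusted p = 0.000575). The follistatin-like genes, whose products carry a follistatin domain, went in opposite directions. Fstl4 fell from a mean of 7.50 to 6.15 (-1.35 ± 0.14, adjusted p = 0.00105) and Fstl5 rose from 5.05 to 5.85 (0.80 ± 0.10, adjusted p = 0.00274). All 3 genes have a mean below that of the median gene, and no detection call tells whether their lower group was above background.

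Of 12 genes listed as SMAD regulators 2 rose. Peg10, an imprinted gene derived from a retrotransposon, gave 11.25, 11.18 and 11.09 in control lungs and 12.11, 11.94 and 12.03 in mutant lungs (0.85 ± 0.07, 1.81-fold, adjusted p = 0.000313). Zfyve9, which encodes SARA, an adaptor that brings SMAD2 and SMAD3 to the TGF-beta receptor, was at 0.32 ± 0.08 (adjusted p = 0.0448). It did not pass in 9 of 16 alternatives, with adjusted p of 0.121, 0.144 and 0.173 without control 1, 2 and 3, and 0.0565 and 0.0845 without mutant 2 and 3. Of 8 further target genes 1 fell. This was Ccn2, a matrix-associated gene induced by TGF-beta, at -0.54 ± 0.13 (adjusted p = 0.0382). Its mutants were all lower, and the adjusted p was 0.146, 0.0715 and 0.144 without control 1, 2 and 3 and 0.0797 without mutant 3. Id2, a BMP target that also marks distal tips, read 12.12 ± 0.02 (SD, n = 3) in controls and 12.11 ± 0.00 in mutants (95% interval of the difference -0.13 to 0.11).

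Of the 13 members that passed, 5 kept an adjusted p of at most 0.05 with each array left out in turn. These were Fst, Tgfb3, Bmp3, Chrdl1 and Fstl3, and their highest adjusted p in these fits was 0.00346, 0.000589, 0.00115, 0.0211 and 0.0413. Each of the other 8 lost its call in at least 1 such fit. Calls also became fewer over all genes, with 876, 793 and 774 without control 1, 2 and 3 against 1528 with all arrays. Smooth muscle, lung epithelial and red cell markers fell in the same mutants as Tgfb3, Bmp3 and Chrdl1, with list medians of -1.74, -0.86 and -0.74, and their part in these falls was not tested.

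**Figure D5:**
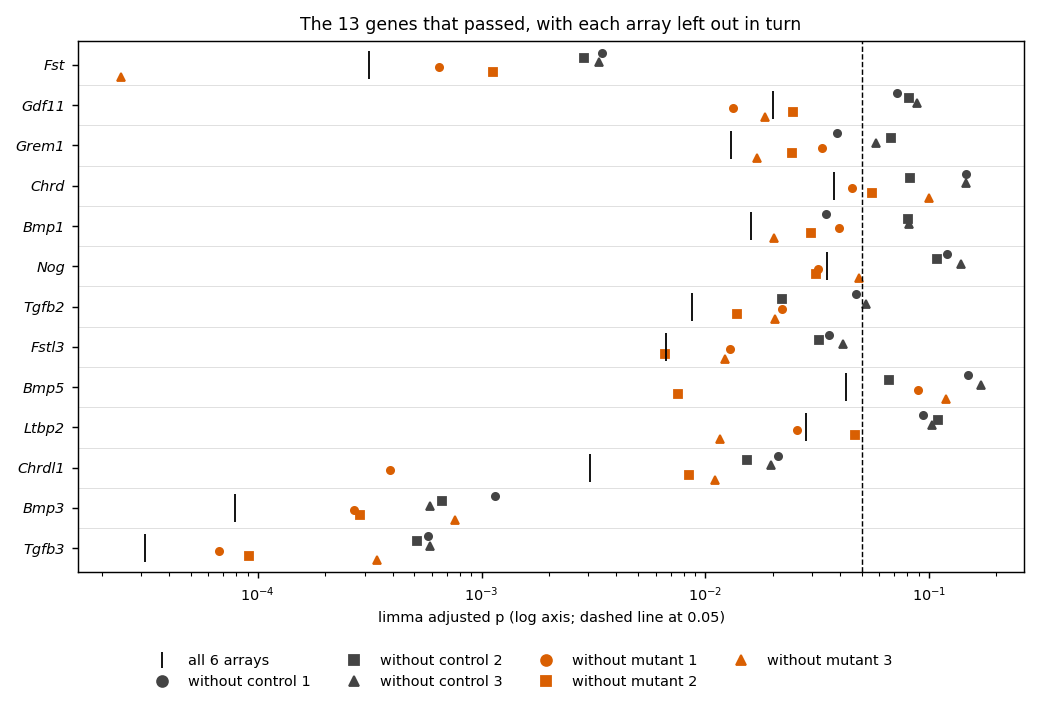
Limma adjusted p (x axis, log scale) of the 13 members that passed, with all 6 arrays (black bar) and with each control or mutant array left out (symbols); the dashed line is the threshold of 0.05. Fst, Tgfb3, Bmp3, Chrdl1 and Fstl3 stay left of the line in all 6 fits, and each of the other 8 lies to its right in at least 1 fit.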

How the data were processed

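The deposited values are log2 expression values. The submitters' processing notes list RMA, the robust multi-array average, which corrects background, normalizes arrays and combines probes, and also list oligo and limma. RMA's settings and the genome build were not given in the sources used here. RMA compresses the differences of dim genes. RNA (100 ng) was amplified and labelled with biotin, per the labels' protocols. The array medians lay between 6.70 and 6.79, and 3 arrays per group set the precision. Nothing in the labels says that equal replicate numbers share a litter.

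Single-symbol features (21797 of 35556; 1613 have several symbols) were kept, 1 per gene, the one with the highest mean. Mutants and controls were compared by lmFit and eBayes of limma 3.58.1 under R 4.3.3, a two-sided test with genotype alone and 7.96 moderated degrees of freedom. On simulated data for 19946 genes it recovered 70.1% of genes changed 1.5-fold and 95.5% of those changed 2-fold. The simulation changed 67 genes at each of these folds and gave every gene independent noise. These rates therefore need not hold for the real arrays.

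Members and lists were chosen with earlier results of these data known, so no p over a list is given. Every member that passed is named, as are members that did not pass but whose groups do not overlap and differ by at least 0.3, up to 3 further pathway genes per role that passed, and other members by their values. Itgb8 and Id2 were named after their values were seen. Promoters of all members that passed were searched, since none of those changed at least 1.5-fold had a sequence. Alternatives are given in the closing section.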

Additional observations from a re-analysis of the deposited data

How the results depend on the processing

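Over the alternatives tried, 455 of 510 recomputed differences of 32 named genes kept their direction and their side of the threshold, 46 no longer passed, 9 newly passed and 0 reversed. With each array left out in turn, 774 to 1745 genes and 5 to 16 members passed, where 1528 genes and 13 members passed with all arrays. The member count was 8, 6 and 5 without control 1, 2 and 3 and 16, 12 and 12 without mutant 1, 2 and 3. Each such fit has fewer samples. When a fold of at least 1.5 was also required, 549 genes and 4 members passed. With the replicate number as a block, 1137 genes and 10 members passed. Bmp5, Nog and Chrd were then lost, and the block changed no other member's call. Deviations of same-numbered arrays correlated at -0.07, 0.05 and 0.15. With 3 arrays per group this cannot decide whether equal numbers share a litter or batch. The numbers were not taken as pairs because the labels name no pairing. The other alternatives, quantile normalization applied again, centring, leaving out the dimmest 1 of 3 parts of the genes, all features, mean features, trend, array weights, sex, heart muscle median and a threshold of 0.1, gave 1215 to 2239 genes and 11 to 17 members. Dim genes limit what can be seen, since values near the array floor cannot fall far.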

Other observations

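Some further pathway genes did not pass but had all mutants on one side of all controls, and they were chosen after their values were seen. Itgav, the alpha V integrin subunit that pairs with the beta 6 and beta 8 subunits, was at 0.30 ± 0.08 (SE, n = 3 per group, limma adjusted p = 0.069), while its partner gene Itgb6 fell. The homeobox gene Msx1, a target of BMP signalling, was at 0.45 ± 0.13 (adjusted p = 0.0886). Pmepa1, a TGF-beta-induced inhibitor of SMAD2 and SMAD3, was at -0.38 ± 0.12 (adjusted p = 0.104), and the microfibril gene Fbn2 at -0.38 ± 0.12 (adjusted p = 0.118).

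Among the 3 mutant arrays, mutant 3 had the highest value in 25 of the 54 members, mutant 1 in 16 and mutant 2 in 13, while the lowest value was in mutant 3 for 13, in mutant 1 for 20 and in mutant 2 for 21.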
